A study of Mus musculus with 22 samples.

Results

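A set of 10 cell cycle inhibitor and p53 pathway genes was followed across single-cell RNA-sequencing libraries from old mice carrying conditional alleles of Nalcn, the gene of a sodium leak channel. The members were listed by name, with earlier results of these data known, and no threshold on a measured value defines them. They are 10 of the 31053 genes in the matrices: the CIP/KIP inhibitors Cdkn1a, Cdkn1b and Cdkn1c, the INK4 inhibitors Cdkn2a, Cdkn2b, Cdkn2c and Cdkn2d, and Trp53, Mdm2 and Gdf15. All mice carried Prom1-CreERT2 and Rosa26ZSG, a tamoxifen-inducible Cre driven by Prom1 together with a green fluorescent (ZSG) lineage reporter. The wt animals carried those 2 alleles only, the het animals carried Nalcn-het in addition and the null animals Nalcn-null. Because Cre was driven by Prom1, recombination could take place only in cells that expressed Prom1 and in their descendants.

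Of 22 libraries, 10 held ntCZCs, that is ZSG+ cells sorted from the blood of mice without tumours (wt replicates 1 and 3, het replicates 1 to 4, null replicates 1 to 4). The 9 tissue libraries with a genotype label held dissociated kidney, liver, lung and stomach pooled with epididymis (males) or uterus (females): wt replicates 1 to 5, het replicates 1 and 2, null replicates 2 and 3. A single library held unsorted peripheral blood mononuclear cells (PBMC) of a wt mouse aged 120 days, whereas all other mice were 551 to 654 days old. For the remaining 2 tissue libraries the labels contradicted each other on genotype, and they entered no comparison. Libraries of 1 group are separate samples by their labels, so p-values measure the spread between these libraries.

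Cyclin-dependent kinases drive cells from G1 into S phase. INK4 proteins bind the kinases that partner with D-type cyclins, and CIP/KIP proteins bind cyclin and kinase complexes more broadly. The transcription factor p53, encoded by Trp53, is held low by Mdm2, a ubiquitin ligase whose own gene p53 induces, and it activates Cdkn1a (p21) and Gdf15 after stress. Cdkn2a encodes p16INK4a and, in another reading frame, ARF, an inhibitor of Mdm2. Its 2 transcripts share their 3′ end, so the 3′ tags counted here cannot tell them apart. Cdkn2a and Cdkn1a are widely used as markers of senescent cells in aged tissue. Cdkn1c (p57) is an imprinted gene, and Gdf15 encodes a secreted cytokine of stressed cells and macrophages.

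Cdkn1a is the member with the most UMIs in the tissue libraries and the classical p53 target, and 1 of its 2 start regions is shown for that reason. In GRCm38 the gene lies at chr17:29090976-29100727 on the plus strand. Of the 10 members, 9 had at least 1 RefSeq start region (250 bases before to 50 after a transcript start, 13 regions in all), and Cdkn1c had none in the table used. Each region was searched on both strands for the p53 consensus decamer, of which 2 copies make up a full binding element. A decamer was present in 2745 of 32851 start regions of all genes (8.36%), and 2 decamers with at most 13 bases between them in 24 (0.0731%). Among the members 4 regions held a decamer and 1 held such a pair, that of Cdkn1a, with the 2 decamers (capitals) starting 73 and 51 bases before the transcript start and 12 bases apart:
Cdkn1a start region, RefSeq, GRCm38.p6, chr17:29090729-29091028, plus strand: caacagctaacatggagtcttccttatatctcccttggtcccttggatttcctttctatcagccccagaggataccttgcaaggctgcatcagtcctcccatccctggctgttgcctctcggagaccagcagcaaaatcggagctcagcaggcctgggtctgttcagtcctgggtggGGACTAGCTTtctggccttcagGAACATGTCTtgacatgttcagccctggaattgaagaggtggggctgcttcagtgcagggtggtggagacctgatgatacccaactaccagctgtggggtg
The other 3 regions held 1 decamer each: GGGCTTGCCT at −102 of Cdkn2d, GAACTTGCCT at −186 of Mdm2 and GGACTTGCCC at −75 of Trp53. The second start region of Cdkn1a, chr17:29093519-29093818, held no decamer, so the positions given for Cdkn1a count from its upstream start. Only exact matches are in capitals, and a decamer with a mismatched base next to them would not be marked. Such a decamer is present: tgacatgttc, directly after the second marked decamer, departs from the consensus in its first base only. A match of letters is a description of the sequence and no measurement of binding.

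The depth of the libraries differed by kind. The ntCZC libraries held 50 to 621 barcodes and 161541 to 2600526 UMIs, the tissue libraries with a label 1856 to 27857 barcodes and 8571019 to 139793927 UMIs, and the PBMC library 752 barcodes and 1422144 UMIs. Of 175975 distinct barcode sequences, 3900 occurred in more than 1 library, with at most 226 (0.860% of the smaller library) shared by any pair. The library labelled ntCZC wt replicate 3 stood apart: 11 of its 77 barcodes passed the filters, 73.5% of its UMIs were haemoglobin, and several members had no UMI there, which at its depth allows up to 18.6 CPM (counts scaled to a common library total, as counts-per-million). The library labelled tissue null replicate 3 was labelled female and uterus, but it held 31.2 CPM of Y-linked transcripts beside 1347 CPM of Xist, and 508 of its barcodes passed the epididymal gate. Results are therefore given with and without these libraries where they change. Nalcn had no UMI in any ntCZC or PBMC library and 0 to 18 in the tissue libraries, too few to check the genotype labels.

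The first comparison asked how the members differ between circulating ZSG+ cells and the solid organs. On UMIs summed over all barcodes of a library, Cdkn1b, Cdkn2d and Trp53 were higher in ntCZCs and Cdkn1c and Gdf15 were lower, whereas Cdkn1a, Cdkn2a, Cdkn2b, Cdkn2c and Mdm2 did not pass the test (edgeR quasi-likelihood test with sex as a covariate, Benjamini-Hochberg over 11905 genes, 10 against 9 libraries). Thus 5 of 10 members were called, beside 66.0% of all genes tested, so the share of members called was not above the background. The kinds were made of different cells. Nonclassical monocyte-like barcodes made up a median of 40.9% of the gated barcodes in ntCZC libraries and 0.774% in tissue libraries, and endothelial-like barcodes a median of 21.5% in tissue. The part of this difference in makeup in the results on summed libraries was not tested, and in sums over mixed cells a change in the number of expressing cells cannot be told apart from a change in RNA per cell.

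Among the CIP/KIP genes, Cdkn1b (p27, an inhibitor typical of resting cells) was at 54.7 to 312 CPM in ntCZC libraries (median 115, mean 149 ± 93.1 SD, n = 10). In tissue libraries it was at 37.3 to 84.1 CPM (median 52.1, mean 51.9 ± 14.4 SD, n = 9). The ranges overlapped at their ends, and the fitted difference was 2.67-fold (log2 1.41, SE 0.26, edgeR adjusted p = 7.4e-05). Cdkn1c was at 0 to 4.78 CPM in ntCZC libraries (median 2.75) and at 5.48 to 24.6 CPM in tissue (median 8.64). The measured values did not overlap, with Cdkn1c 3.81-fold lower in ntCZCs (log2 −1.93, SE 0.33, edgeR adjusted p = 3.1e-05). Only 8 of 10 ntCZC libraries had a Cdkn1c UMI, and the limit given above for wt replicate 3 lies within the tissue range. Cdkn1a was at 0 to 337 CPM in ntCZC libraries (median 182, mean 158 ± 107 SD) and at 168 to 381 CPM in tissue (median 266, mean 267 ± 73.7 SD). It was the most abundant member in tissue and overlapped between the kinds (log2 −0.78, SE 0.37, edgeR adjusted p = 0.068). The Cdkn1a difference passed the threshold without ntCZC wt replicate 3 (log2 −0.73, edgeR adjusted p = 0.0471), and also without ntCZC het replicate 2 (−0.96, 0.0339), het replicate 4 (−0.92, 0.0438), null replicate 1 (−0.90, 0.0375) or tissue het replicate 2 (−0.90, 0.0463). It passed as well with RLE scaling (−1.01, 0.0174), with DESeq2 (−1.03, 0.00539) and with 2 further settings.

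**Figure D1:**
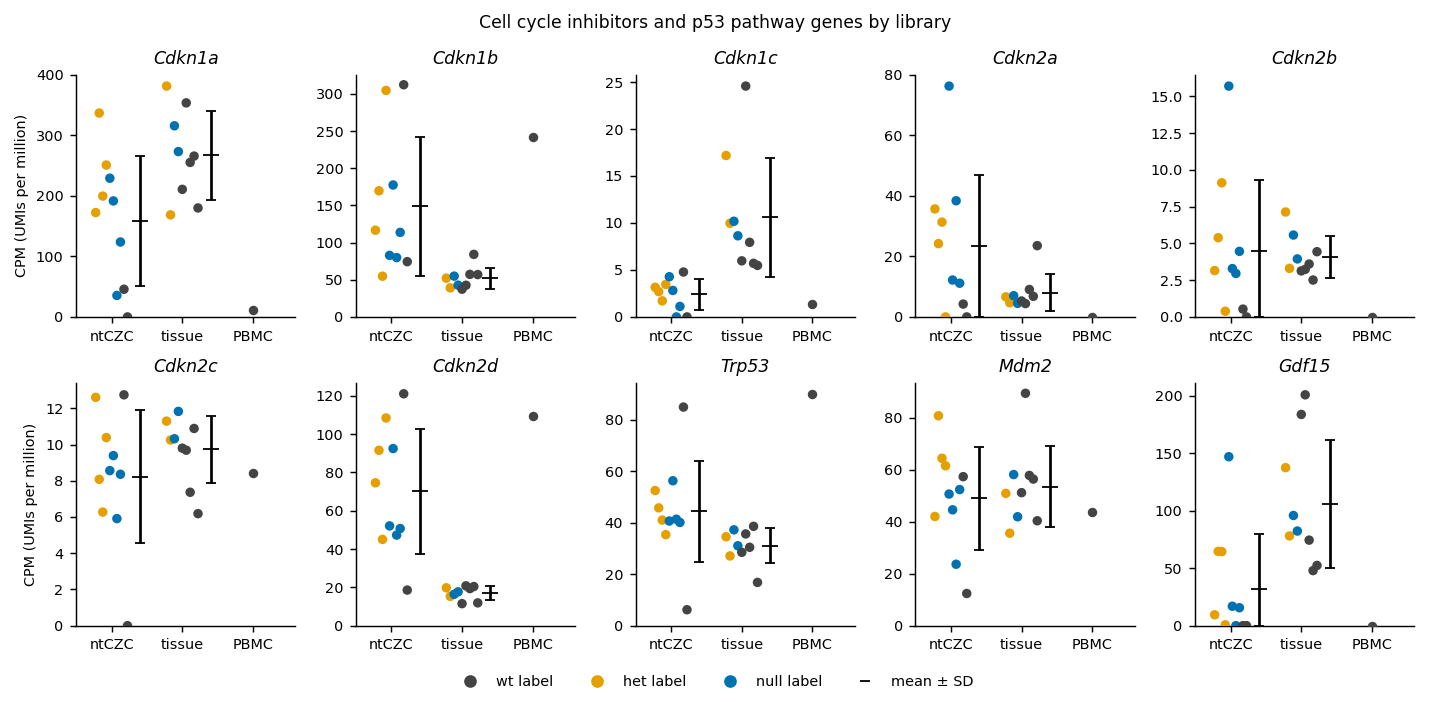
CPM of each member in every library with a genotype label (points coloured by wt, het or null), by kind of library on the horizontal axis, with the mean ± SD of the kind (lower end stopped at 0) beside the points. Cdkn2d and Cdkn1b sit higher in ntCZC than in tissue libraries, Cdkn1c sits lower without overlap of the points, and among the ntCZC libraries a single one leads for Cdkn2a (76.3 CPM) and for Gdf15 (147 CPM).

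Of the INK4 genes Cdkn2d (p19INK4d) passed the test, in all 26 alternatives as well. It was at 18.6 to 121 CPM in ntCZC libraries (median 63.3, mean 70.2 ± 32.6 SD) and at 11.5 to 20.8 CPM in tissue (median 17.7, mean 17.0 ± 3.52 SD). All ntCZC libraries but wt replicate 3 lay above all tissue libraries, and the fitted difference was 4.03-fold (log2 2.01, SE 0.15, edgeR adjusted p = 6.6e-10). Without wt replicate 3 it was 1.97 on the log2 scale. Cdkn2a was at 0 to 76.3 CPM in ntCZC libraries (median 18.2) and at 4.41 to 23.6 CPM in tissue (median 6.64), and the ranges overlapped widely (log2 1.20, SE 0.56, edgeR adjusted p = 0.068). The Cdkn2a difference passed the threshold without ntCZC wt replicate 1 (1.33, 0.0431), het replicate 4 (1.40, 0.0142), null replicate 4 (1.32, 0.0459) or tissue wt replicate 5 (adjusted p = 0.0430), and without the sex covariate (1.55, 0.0346). Cdkn2b (p15INK4b) had medians of 3.22 and 3.60 CPM and Cdkn2c (p18INK4c) of 8.46 and 10.2 CPM in ntCZC and tissue libraries. Neither passed the test (log2 −0.07 and −0.17, edgeR adjusted p = 0.91 and 0.34), although Cdkn2c was called lower with RLE scaling (−0.43, 0.0187) and with DESeq2 (−0.43, 0.0232), which lower the median of all genes as well. Relative to that median Cdkn2c was at −0.05 with TMM and −0.06 with RLE scaling.

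Trp53 was at 6.19 to 84.9 CPM in ntCZC libraries (median 41.2) and at 16.8 to 38.6 CPM in tissue (median 31.0). The groups overlapped and the difference was 1.44-fold (log2 0.53, SE 0.14, edgeR adjusted p = 0.0031), which was lost with RLE scaling (0.29, 0.0658) and when barcodes with more than 20% mitochondrial UMIs were left out (0.25, 0.129). Mdm2 had nearly the same median in both kinds, 51.5 and 51.2 CPM (log2 −0.13, SE 0.18, edgeR adjusted p = 0.54). Gdf15 was at 0 to 147 CPM in ntCZC libraries (median 12.5) and at 47.9 to 201 CPM in tissue (median 82.3). Of the 10 ntCZC libraries 7 lay below all tissue libraries, and the level was 4.21-fold lower in ntCZCs (log2 −2.07, SE 0.83, edgeR adjusted p = 0.034). The Gdf15 call was lost without ntCZC het replicate 1 (−1.91, 0.0638), het replicate 4 (−1.75, 0.0563) or null replicate 2 (−1.99, 0.0618), without the sex covariate (−1.54, 0.0548) and with genotype label as a covariate (−2.27, 0.0521). Without tissue null replicate 3 the same 5 members were called.

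The median difference of all genes tested was −0.13 on the log2 scale with TMM scaling and −0.37 with RLE. Relative to that median the members' differences were nearly the same under both: 1.54 and 1.56 for Cdkn1b, −1.80 and −1.81 for Cdkn1c, 2.14 under both for Cdkn2d, 0.65 and 0.66 for Trp53, −1.95 and −1.93 for Gdf15, and −0.65 and −0.64 for Cdkn1a. The shares of barcodes with a UMI were compared after thinning to 1000 UMIs, without a test. Shallower barcodes were left out, which kept 1961 of 2109 filtered ntCZC barcodes (80.6 to 98.4% by library) and 60670 of 72758 tissue barcodes (52.8 to 100% by library), so the thinned shares describe the deeper barcodes. Cdkn1b was then detected in 19.5% ± 9.16 (SD, n = 10 libraries) of ntCZC barcodes and in 7.54% ± 1.54 (SD, n = 9) of tissue barcodes. For Cdkn2d the shares were 9.02% ± 3.11 and 2.58% ± 0.427, and for Cdkn1a 11.7% ± 6.87 and 23.3% ± 3.48. Without thinning, the Cdkn1a shares were 31.7% and 36.6% and the Trp53 shares 24.5% and 13.8%, whereas the thinned Trp53 shares were 5.27% and 4.61%.

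In the PBMC library, which has no replicate, Cdkn1b was at 242 CPM (344 UMIs, exact Poisson interval 217 to 269 CPM), Cdkn2d at 110 CPM (156 UMIs, 93.2 to 128) and Trp53 at 90.0 CPM (128 UMIs, 75.1 to 107). These 3 genes lay above the median of both other kinds. Cdkn1a was at 12.0 CPM (17 UMIs, 6.96 to 19.1), below every tissue library. Cdkn2a, Cdkn2b and Gdf15 had no UMI, which allows up to 2.11 CPM each when 3 counts are taken as the limit (exact Poisson upper bound 2.59 CPM). Intervals and limits of this sort cover counting error only, and the mouse was also the only young one.

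The second comparison asked which cells of the organs carried each member. Barcodes were assigned to a class when they held UMIs of at least 2 of its 5 gate genes and led every other class by 2, and names are meant in the sense of "endothelial-like". Of 24 classes gated, 19 had at least 3 tissue libraries with 20 barcodes or more, which gave 124 sums. For each class 3 further genes, not used in the gate, served as a check. The check genes did not separate every class equally well. In gastric mucous-like barcodes Muc6 was found in 3.68%, and in the class gated on Krt5, Krt14, Krt15, Trp63 and Dsg3 Col17a1 was found in 39.7% but Dsc3 in 2.48% and Lgals7 in 4.96%, so the latter is called the Krt5-gated class. Kap was found in 26.3% of proximal tubule barcodes and in 15.8% of those of the other classes, and Maf in 47.8% of C1q macrophages against 27.2%. Each class was set against the mean of the other classes with the library as a block. Of 190 pairs of member and class, 88 were called (52 higher, 36 lower), beside a background of 34.3% of all genes over the classes. The share of all genes called was 50.5% for alveolar macrophages, 39.3% for C1q macrophages, 38.5% for neutrophils, 35.2% for classical monocytes, 24.4% for nonclassical monocytes, 43.7% for B cells, 41.5% for T cells and 16.7% for plasma cells. Among the other classes it was 50.9% for endothelial cells, 36.0% for fibroblasts, 32.2% for smooth muscle cells and pericytes, 17.9% for mesothelial cells, 48.9% for kidney proximal tubule, 54.3% for ciliated cells, 16.8% and 10.0% for alveolar type 1 and type 2 cells, 50.8% for epididymal epithelium, 27.0% for gastric mucous cells and 18.1% for the Krt5-gated class.

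A second fit, chosen after seeing the data, set each class against the sums of all other classes taken as 1 group. It called 44 pairs, of which 42 were among the 88, and 4 of the 88 changed sign in it. No share of all genes called is given for this fit, so a call in it is not set against a background. Where a gene has no UMI in some classes, as Cdkn2a in 3, its coefficients there are not finite, so a difference against the mean of coefficients depends on the prior count. No class was called lower for Cdkn2a in the first fit. Both values are given where a call rests on 1 fit. For the classes, an adjusted p is that of edgeR's quasi-likelihood test with the Benjamini-Hochberg method over 12713 genes. Each level is a mean CPM ± SD over libraries. Exact intervals of the shares of a class pool the barcodes of all its libraries. They cover counting error only and leave out the spread between libraries.

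**Figure D2:**
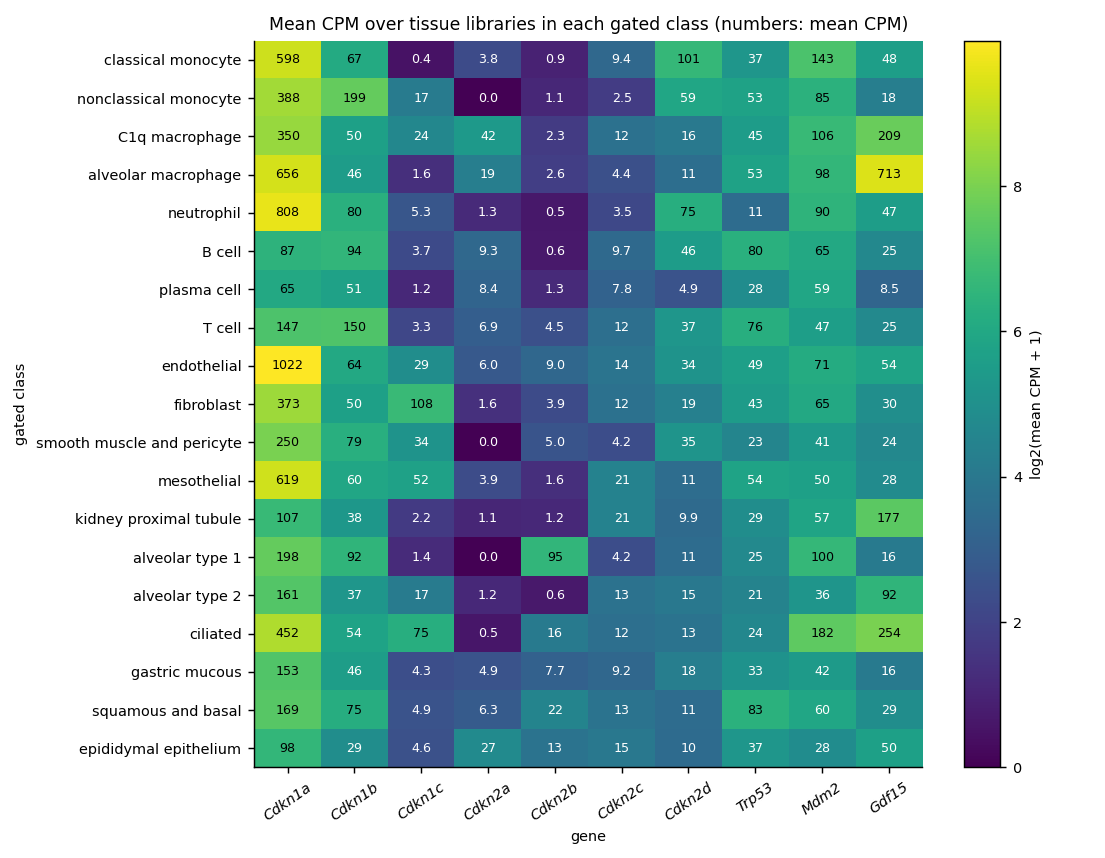
Mean CPM of each member (columns) in the 19 tissue classes (rows), averaged over libraries with at least 20 barcodes of the class, with colour showing log2(mean CPM + 1) and the number in each cell the mean CPM. The class with the highest mean differs between members, but the tests do not decide the order of adjacent classes. The highest mean is that of endothelial cells for Cdkn1a (1022 CPM) and of fibroblasts for Cdkn1c (108 CPM). It is that of alveolar type 1 cells for Cdkn2b (84.5 to 118 CPM by library) and of alveolar macrophages for Gdf15 (713 CPM).

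Cdkn1a was highest in endothelial-like cells, at 416 to 1591 CPM in 9 libraries (median 863, mean 1022 ± 423 SD), followed by neutrophils at 442 to 1136 CPM in 8 (mean 808 ± 278 SD). The top classes overlapped: endothelial cells exceeded neutrophils in 5 of 8 shared libraries (exact sign-flip permutation test, p = 0.37). Against the mean of the other classes Cdkn1a was 1.98 higher in endothelial cells on the log2 scale (SE 0.17, adjusted p = 3.7e-19) and 2.17 higher in neutrophils (SE 0.19, adjusted p = 9.8e-19). Both were called in the second fit as well (1.48 and 1.59, adjusted p = 0.0017 and 0.0011). Alveolar macrophages, at 656 ± 132 CPM, and classical monocytes, at 598 ± 108 CPM, were called in the first fit only (log2 1.56 and 1.39, second fit 0.96 and 0.76 with adjusted p = 0.059 and 0.18). At the low end stood plasma cells (65.1 ± 10.8 CPM), B cells (87.1 ± 53.8 CPM), epididymal epithelium (97.8 ± 60.7 CPM) and kidney proximal tubule (107 ± 67.8 CPM). B cells (log2 −1.71, adjusted p = 4.1e-08), proximal tubule (−1.30, 3.7e-06) and epididymal epithelium (−1.18, 1.9e-04) were lower in both fits, as were T cells (−0.86, 0.0024, second fit −1.48, 0.0397, but −0.46, 0.0934 with a lead of 1 gate gene), whereas the plasma cell difference (−1.33, 0.015) was lost without tissue wt replicate 4 (−1.26, 0.105) and in the second fit (−1.75, 0.24). Cdkn1a was detected in 53.9% of 7384 endothelial barcodes (exact 95% interval 52.8 to 55.0%, median 1990 UMIs) and in 14.2% of plasma cell barcodes (median 4473 UMIs). After thinning to 1000 UMIs the shares were 41.2% and 3.42%.

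The summed level of the 12 immediate early and heat shock genes was 7204 to 22535 CPM in endothelial cells and 12004 to 21351 CPM in fibroblasts, and 1725 to 4781 CPM in B cells. In the classes next after endothelial cells for Cdkn1a, this level was 8625 to 17103 CPM in neutrophils and 3336 to 4712 CPM in alveolar macrophages. It was 10072 to 22871 CPM in mesothelial cells and 4119 to 7408 CPM in classical monocytes. Its part in the order of the Cdkn1a levels was not tested. The genes whose class means followed those of Cdkn1a most closely were Nfkbia (Pearson r = 0.88 over 19 classes), Ifrd1 (0.83) and Hlx (0.83), which is a description over classes that share libraries.

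Cdkn1b was highest in nonclassical monocytes and T cells. In nonclassical monocytes it was at 228 (wt replicate 1), 241 (wt replicate 2), 226 (wt replicate 4), 189 (het replicate 1) and 110 CPM (null replicate 3). In T cells it was at 121 to 182 CPM in 8 libraries (mean 150 ± 18.4 SD). Nonclassical monocytes exceeded T cells in 4 of 5 shared libraries (exact sign-flip permutation test, p = 0.25). T cells exceeded the third class, B cells, in 8 of 8 (exact sign-flip permutation test, p = 0.0078, the smallest that 8 libraries allow, and 0.156 after adjustment over 60 tests). Nonclassical monocytes and T cells were called in both fits (log2 1.69, SE 0.16, adjusted p = 2.5e-17, and 1.26, SE 0.11, adjusted p = 8.2e-19). The lowest level was that of epididymal epithelium, at 28.8 ± 6.98 CPM (log2 −0.73, adjusted p = 3.4e-05, second fit −0.80, 0.063), and proximal tubule and ciliated cells were lower in both fits (log2 −0.76 and −0.70).

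Cdkn1c belonged to stromal and ciliated cells. In fibroblasts it was at 58.3 to 171 CPM in 8 libraries (median 98.8, mean 108 ± 39.3 SD) and in ciliated cells at 45.5 to 124 CPM in 8 (mean 75.5 ± 25.4 SD). All of these libraries lay above the highest values of B cells, T cells, classical monocytes and alveolar macrophages. Fibroblasts (log2 3.90, SE 0.26, adjusted p = 1.6e-26) and ciliated cells (3.17, SE 0.26, adjusted p = 2.8e-21) were called in both fits, at 2.88 and 1.92 in the second. Alveolar macrophages (−2.74), classical monocytes (−2.95) and proximal tubule (−1.33) were lower in both fits, and these calls were lost without tissue wt replicate 2 (−2.57, −3.54 and −1.77) or het replicate 1 (−2.52, −2.58 and −1.05). With a lead of 1 gate gene the first 2 calls were lost (−1.89 and −1.86), and the proximal tubule difference turned to 0.029. Mesothelial cells (52.2 ± 35.7 CPM), smooth muscle cells and pericytes (34.0 ± 9.81 CPM) and endothelial cells (28.8 ± 7.34 CPM) were called in the first fit alone (log2 2.64, 1.87 and 1.92, second fit 1.16, 0.43 and 0.54). The mesothelial call was lost without tissue het replicate 1 (2.31, 0.0617). C1q macrophages averaged 23.8 ± 34.1 CPM, but wt replicate 2 at 62.5 CPM and null replicate 3 at 99.5 CPM made up most of it. Of the 837 Cdkn1c UMIs in this class, which came from 143 of 3603 barcodes, 51.6% lay in the top 10 barcodes. The difference of C1q macrophages was 1.83 (adjusted p = 1.7e-09), 1.33 without null replicate 3, and 0.50 in the second fit (adjusted p = 0.68). Cdkn1c was detected in 20.9% of 1011 fibroblast barcodes and 0.513% of 779 classical monocyte barcodes (thinned 9.66% and 0.0994%, median 2263 and 3155 UMIs).

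Cdkn2a was rare and unevenly spread. It had 1122 UMIs over all gated tissue barcodes, against 57748 for Cdkn1a. In alveolar macrophages it was at 3.89 to 35.4 CPM in 8 libraries (median 19.9, mean 18.6 ± 9.74 SD). In epididymal epithelium it was at 89.4 CPM in wt replicate 2 and between 1.80 and 29.9 CPM in the other 5 libraries, and in C1q macrophages at 246 CPM in wt replicate 5 (51 barcodes) and between 3.13 and 29.7 CPM in the other 8. Single libraries thus set both of these means. Alveolar macrophages and epididymal epithelium were called in both fits (log2 3.05 and 3.51, second fit 1.67 and 2.52, adjusted p = 0.015 and 0.0018), C1q macrophages in the first alone (2.80, second fit 1.56, adjusted p = 0.071). No UMI was found in 414 nonclassical monocyte, 272 smooth muscle and pericyte or 170 alveolar type 1 barcodes, which allows up to 0.725%, 1.10% and 1.76% of barcodes with a UMI and sets no limit on the share of cells that express the gene. In the second fit ciliated cells and proximal tubule were lower (−3.44 and −2.92, adjusted p = 0.0058 and 0.010). The share of barcodes with a Cdkn2a UMI was 6.69% in 3305 alveolar macrophages (exact 95% interval 5.86 to 7.59%) and 3.11% in 3603 C1q macrophages, and 1.76% and 1.32% after thinning.

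Cdkn2b, the neighbour of Cdkn2a on chromosome 4, led in a different class. In alveolar type 1 cells it was at 118 (wt replicate 2), 91.9 (het replicate 1), 84.5 (null replicate 2) and 85.7 CPM (null replicate 3). These 4 libraries lay above the highest library of every other class. The difference was called in both fits (log2 4.34, SE 0.40, adjusted p = 1.8e-17, second fit 3.68, adjusted p = 1.3e-05). Cdkn2b was found in 35 of 170 alveolar type 1 barcodes (20.6%, exact 95% interval 14.8 to 27.5%, median 1720 UMIs) and in 4 of 1699 neutrophils (0.235%, median 1591 UMIs). The Krt5-gated class (21.7 ± 6.75 CPM), ciliated cells (15.8 ± 7.25 CPM) and epididymal epithelium (6.30 to 21.4 CPM) came next and were called in the first fit alone (log2 2.22, 1.82 and 2.11, second fit adjusted p = 0.53, 0.077 and 0.074).

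Cdkn2c and Cdkn2d were placed in other cells again. Cdkn2c had its highest mean in mesothelial cells, 20.8 ± 9.67 CPM (SD, n = 4), which were not called. It was at 8.27 to 33.1 CPM in kidney proximal tubule (median 17.8, mean 20.6 ± 9.33 SD), which was called in both fits (log2 1.31, SE 0.20, adjusted p = 1.4e-08, second fit 1.10, 0.013). Cdkn2d was at 58.1 to 171 CPM in classical monocytes (median 99.9, mean 101 ± 38.6 SD) and at 27.4 to 197 CPM in neutrophils (median 59.2). Both were called in both fits (log2 2.52, SE 0.18, adjusted p = 9.2e-24, and 2.03, SE 0.22, adjusted p = 5.7e-14). Nonclassical monocytes (59.2 ± 21.4 CPM), B cells (45.5 ± 14.6 CPM) and T cells (36.9 ± 10.6 CPM) were higher in the first fit alone (log2 1.59, 1.29 and 0.88, second fit 0.91, 0.73 and 0.31). Alveolar macrophages, ciliated cells and proximal tubule were lower in both (log2 −0.88, −1.02 and −0.83). The ciliated Cdkn2d call was lost without tissue wt replicate 2 (−0.62, 0.0505). Btg1, an antiproliferative gene, followed the class means of Cdkn2d most closely (Pearson r = 0.91 over 19 classes).

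The class means of Trp53 lay between 10.7 and 82.8 CPM. It was at 59.7 to 101 CPM in B cells (median 83.2, mean 79.7 ± 14.9 SD) and at 54.4 to 94.9 CPM in T cells (median 74.2, mean 75.7 ± 12.4 SD), and at 10.7 ± 12.6 CPM in neutrophils. The B cell and T cell ranges lay wholly above those of neutrophils and ciliated cells. B cells (log2 1.11, SE 0.13, adjusted p = 6.2e-13) and T cells (0.99, SE 0.13, adjusted p = 1.4e-10) were higher in both fits, and ciliated cells (−1.14, adjusted p = 3.9e-08) and smooth muscle cells and pericytes (−1.07) lower in both. Neutrophils were lower in both as well (−0.72, adjusted p = 0.029, second fit −1.29, adjusted p = 0.0046). The Krt5-gated class, at 82.8 ± 26.2 CPM in 3 libraries, was called in the first fit alone (0.89, 0.0072, second fit 0.73, 0.53). In the first fit the neutrophil call was lost without het replicate 2 (−0.66, 0.0549), null replicate 2 (−0.65, 0.0778), wt replicate 1 (−0.60, 0.211), wt replicate 3 (−0.56, 0.144) or wt replicate 5 (−0.68, 0.0549) and was −1.32 without wt replicate 2. Npm1, a nucleolar protein gene, followed the class means of Trp53 most closely (r = 0.91).

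Mdm2 was highest in ciliated cells, at 149 to 265 CPM in 8 libraries (median 178, mean 182 ± 36.4 SD), a class in which Trp53 was lower in both fits. Classical monocytes followed at 59.5 to 224 CPM (median 141, mean 143 ± 57.7 SD), and ciliated cells exceeded them in 5 of 8 libraries (exact sign-flip permutation test, p = 0.17). Classical monocytes exceeded C1q macrophages (106 ± 46.8 CPM) in 8 of 8 libraries (exact sign-flip permutation test, p = 0.0078, and 0.156 after adjustment over 60 tests). Ciliated cells (log2 1.27, SE 0.15, adjusted p = 3.1e-12) and classical monocytes (1.29, SE 0.17, adjusted p = 1.5e-10) were called in both fits, and epididymal epithelium, at 27.9 ± 8.85 CPM, was lower in both (−0.86, adjusted p = 2.4e-04), as were smooth muscle cells and pericytes (−1.17, second fit −1.32). The first fit alone also called neutrophils, C1q macrophages and alveolar macrophages higher (0.92, 0.76 and 0.69, second fit 0.55, 0.57 and 0.43). Mdm2 was detected in 57.5% of 520 ciliated barcodes, or 16.8% after thinning from a median of 5018 UMIs.

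Among the 19 classes compared, Gdf15 was highest in alveolar macrophages. It was there at 471 to 961 CPM in 8 libraries (median 723, mean 713 ± 187 SD), and every one of these libraries lay above the highest ciliated library (406 CPM). It exceeded ciliated cells in 8 of 8 libraries (exact sign-flip permutation test, p = 0.0078, and 0.156 after adjustment over 60 tests). It was called in both fits (log2 4.40, SE 0.18, adjusted p = 9.6e-45, second fit 3.50, adjusted p = 1.6e-11). Ciliated cells (39.8 to 406 CPM, mean 254 ± 124 SD), C1q macrophages (64.6 to 332 CPM, mean 209 ± 101 SD) and proximal tubule (60.7 to 356 CPM, mean 177 ± 101 SD) came next and overlapped with each other. They were called in the first fit (log2 2.35, 2.45 and 2.16) and not in the second (0.81, 1.18 and 0.65, adjusted p = 0.34, 0.21 and 0.48). B cells (24.6 ± 23.7 CPM) were lower in both fits (log2 −1.09 and −2.44), and so were T cells (−0.82 and −2.40), whose call in the first fit was lost without tissue het replicate 1 (−0.80, 0.0508), het replicate 2 (−0.73, 0.0552) or null replicate 2 (−0.70, 0.0704). Gdf15 was detected in 62.4% of 3305 alveolar macrophage barcodes (exact 95% interval 60.7 to 64.0%) and in 3.86% of 233 plasma cells (thinned 35.4% and 0.576%, median 4308 and 4473 UMIs). In the kidney collecting duct principal cells, which had 34 barcodes and entered no fit, 472 Gdf15 UMIs came from 20 barcodes, with 92.4% in the top 10.

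Neighbours in the order of the class means were compared within shared libraries in 60 tests, of which 4 had a p under 0.05 and 0 after Benjamini-Hochberg adjustment. The fourth of these was Cdkn2a, which was higher in alveolar macrophages than in B cells in 7 of 8 libraries (exact sign-flip permutation test, p = 0.0156). The smallest p that 8 shared libraries allow is 0.0078 (exact sign-flip permutation test), too large for a lone test among 60 to pass. The adjusted tests therefore cannot decide the order of adjacent classes for any member. Neighbours and their direction were also taken from the same values that were tested, so an unadjusted p overstates the evidence. No member was called in alveolar type 2 cells in the first fit.

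To compare like with like, the members were set side by side within classes that both blood and organs hold. In nonclassical monocyte-like barcodes (7 ntCZC and 5 tissue libraries with at least 20 such barcodes each), Cdkn1a was at 49.0 to 353 CPM in ntCZCs (median 225, mean 221 ± 106 SD). In tissue it was at 184 CPM in null replicate 3 and at 332, 407, 451 and 566 CPM in the others (mean 388 ± 142 SD). The ranges overlapped, and Cdkn1a was 2.08-fold lower in ntCZCs (log2 −1.06, SE 0.34, edgeR adjusted p = 0.028). It was the only one of the 5 members tested that was called, beside 23.0% of 4816 genes. The call was lost with DESeq2 (−0.99, 0.0519), with at least 50 barcodes per library (−1.31, 0.098), and without tissue wt replicate 1 (−0.85, 0.133), wt replicate 2 (−1.02, 0.057), wt replicate 4 (−1.06, 0.0558), ntCZC het replicate 1 (−0.98, 0.0567) or ntCZC null replicate 2 (−0.99, 0.0579).

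In the same monocytes Cdkn1b was at 231 to 399 CPM in ntCZCs (mean 315 ± 59.8 SD) and at 110 to 241 CPM in tissue (mean 199) (log2 0.44, edgeR adjusted p = 0.10). Cdkn2d was at 93.1 ± 21.3 and 59.2 ± 21.4 CPM (log2 0.63, edgeR adjusted p = 0.075), and its difference passed the threshold without ntCZC wt replicate 1 (0.72, 0.0425) or tissue null replicate 3 (0.74, 0.0495). Trp53 and Mdm2 differed by less (log2 −0.09 and −0.21, edgeR adjusted p = 0.88 and 0.52). Cdkn2a had no UMI in 838 ntCZC or 414 tissue barcodes of this class, which limits the barcodes with a UMI (up to 0.725% in tissue) and not the cells that express the gene. The thinned share of barcodes with a Cdkn1a UMI was 18.8% in ntCZCs and 27.5% in tissue, at median depths of 4377.5 and 2483 UMIs before thinning.

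In B cell-like barcodes (6 ntCZC and 8 tissue libraries), both Cdkn1a and Mdm2 were lower in ntCZCs. None of these ntCZC libraries was wt, whereas the tissue libraries were wt, het and null, and label was not a term of the fit. A difference of kind can therefore not be fully told apart from one of label here. Cdkn1a was at 0 to 56.1 CPM in ntCZCs (median 9.26) and at 40.5 to 179 CPM in tissue (median 62.7), and the ranges overlapped at the top of the ntCZC libraries (log2 −1.93, SE 0.55, edgeR adjusted p = 0.012). Mdm2 was at 0 to 87.3 CPM in ntCZCs (median 22.7) and at 40.1 to 117 CPM in tissue (median 64.2), with more overlap (log2 −1.28, SE 0.38, edgeR adjusted p = 0.015). These were 2 of the 5 members tested, beside 35.4% of 4525 genes. The ntCZC values rest on 25 Cdkn1a UMIs and 47 Mdm2 UMIs in 253 barcodes. Both calls were lost without ntCZC het replicate 3 (Cdkn1a −1.62, 0.0506, and Mdm2 −1.15, 0.0573), and that of Mdm2 also with at least 50 barcodes per library (−1.39, 0.0759). Cdkn2d was at 97.5 ± 91.8 CPM in ntCZCs and 45.5 ± 14.6 CPM in tissue (log2 0.87, edgeR adjusted p = 0.085), which passed without tissue null replicate 3 (1.09, 0.0277) or ntCZC null replicate 4 (1.13, 0.0262). For Cdkn1b and Trp53 the differences were 0.37 and −0.29 on the log2 scale (edgeR adjusted p = 0.32 and 0.47).

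**Figure D3:**
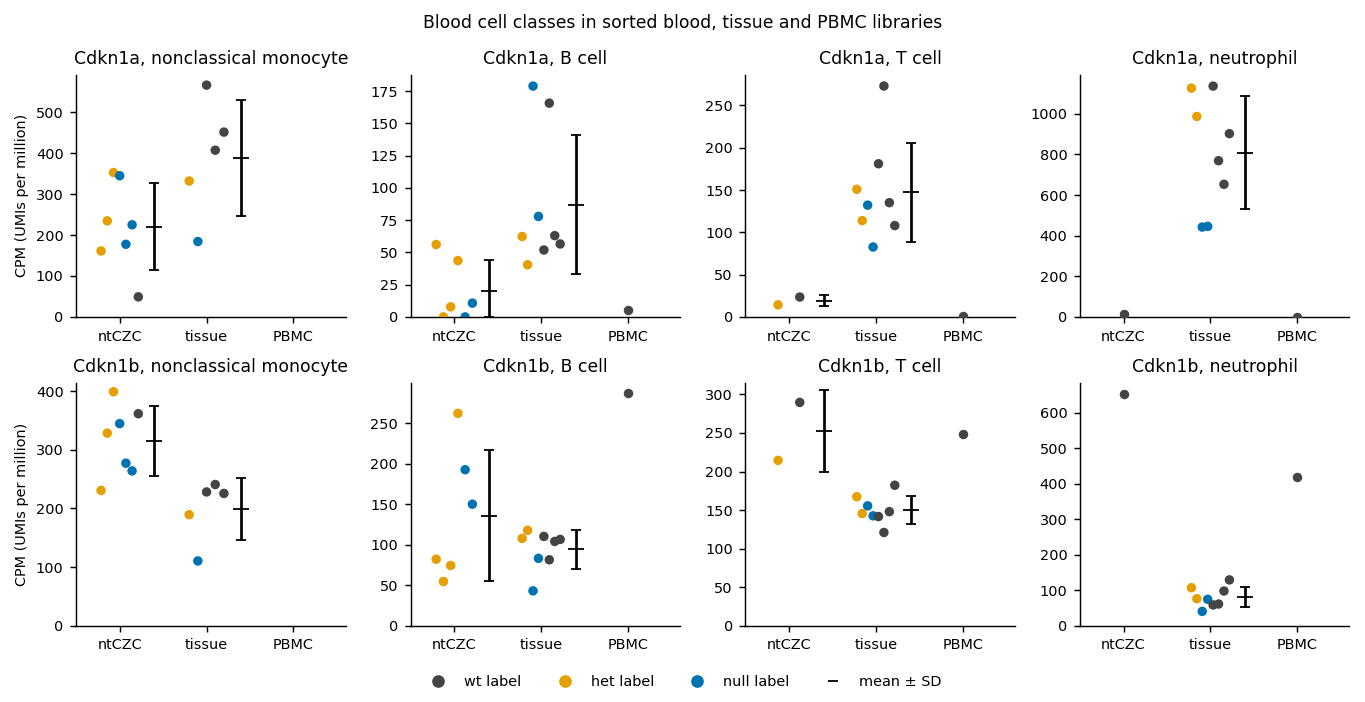
CPM of Cdkn1a (upper row) and Cdkn1b (lower row) in 4 gated classes by kind of library, 1 point for each library with at least 20 barcodes of the class (coloured by wt, het or null), with bars for the mean ± SD stopped at 0 (PBMC has no nonclassical monocyte point). In T cells and neutrophils all tissue points lie above the blood points for Cdkn1a and below them for Cdkn1b, whereas in B cells and nonclassical monocytes the points of the kinds overlap in part.

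T cells, classical monocytes and C1q macrophages were compared in the same way after their values had been seen, and neutrophils, with 1 ntCZC library, were not tested. In T cell-like barcodes Cdkn1a was at 23.5 CPM in ntCZC wt replicate 1 and 14.3 CPM in ntCZC het replicate 4, at 1.62 CPM (1 UMI) in PBMCs, and at 82.7 to 273 CPM in the 8 tissue libraries (median 134). All 3 blood values lay below every tissue library, and Cdkn1a was 10.8-fold lower in ntCZCs than in tissue (log2 −3.43, SE 0.49, edgeR adjusted p = 0.0010, at most 0.0429 in the other settings). It was the only one of 6 members called, beside 13.9% of 5830 genes, and the ntCZC values rest on 12 Cdkn1a UMIs in 125 barcodes. Cdkn1b was at 290, 214 and 248 CPM in the blood libraries and at 121 to 182 CPM in tissue (median 147), without overlap, but did not pass the test (log2 0.57, SE 0.23, edgeR adjusted p = 0.11).

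In classical monocyte-like barcodes (3 ntCZC and 8 tissue libraries) 4 of 6 members were called, beside 25.3% of 4344 genes. Cdkn1a was at 62.1 (wt replicate 1), 263 (het replicate 4) and 255 CPM (null replicate 2) in ntCZCs and at 381 to 686 CPM in tissue (median 638), without overlap (log2 −1.86, SE 0.36, edgeR adjusted p = 0.0014). Mdm2 was at 62.1, 47.3 and 30.3 CPM in the same ntCZC libraries and at 59.5 to 224 CPM in tissue (median 141), with overlap at 1 library of each kind (log2 −1.98, SE 0.36, edgeR adjusted p = 8.8e-04). Gdf15 had 1 UMI in the 3 ntCZC libraries together and was at 10.6 to 118 CPM in tissue (median 33.0), a difference that was called as well (edgeR adjusted p = 0.0014) but whose fitted size depends on the prior count. Cdkn1b was higher in ntCZCs, at 223, 115 and 118 CPM against 45.6 to 95.5 CPM in tissue (log2 0.95, SE 0.27, edgeR adjusted p = 0.015), a call that was lost without ntCZC wt replicate 1 (0.64, 0.111).

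In neutrophil-like barcodes Cdkn1a was at 12.5 CPM in ntCZC wt replicate 1 (2 UMIs in 99 barcodes), had no UMI in the PBMC neutrophils, and was at 442 to 1136 CPM in tissue (median 836). Cdkn1b was at 652 and 419 CPM in the blood libraries and at 40.2 to 129 CPM in tissue (median 75.1), and Cdkn2d at 363 and 419 CPM in blood and at 27.4 to 197 CPM in tissue (median 59.2). For these 3 genes the blood values, from 1 ntCZC and 1 PBMC library, lay outside the range of the tissue libraries. The share of all genes for which this holds is not given, so it is a description of these values only.

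Genes that tissue dissociation is known to induce were measured beside these values, as a list of 12 immediate early and heat shock genes chosen after the members' values were seen. Their summed level was 713 and 1862 CPM in ntCZC T cells, 1637 CPM in PBMC T cells and 2660 to 4943 CPM in tissue T cells. In B cells it was 788 to 4506 CPM in ntCZCs and 1725 to 4781 CPM in tissue, in nonclassical monocytes 2299 to 6269 and 4565 to 7139 CPM, and in classical monocytes 2833 to 10025 and 4119 to 7408 CPM. In neutrophils it was 10497 CPM in ntCZC wt replicate 1, 13072 CPM in PBMCs and 8625 to 17103 CPM in tissue, so in this class the sums overlapped while Cdkn1a did not. The part of these genes in the Cdkn1a differences was not tested.

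RNA of other cells was measured in these classes by the 3 check genes of a class. Those of alveolar macrophages (Ear1, Cidec, Fabp1) had no UMI in ntCZC T cells, B cells and classical monocytes, and had medians of 31.2, 57.3 and 37.6 CPM in the same classes of tissue (at most 77.2, 98.6 and 131 CPM). In alveolar macrophages themselves they were at 1515 to 2337 CPM. Those of endothelial cells (Pecam1, Kdr, Emcn) were at 7.15 to 15.7 CPM in ntCZC T cells, 114 CPM in PBMC T cells and 50.3 to 148 CPM in tissue T cells, and at 0 to 3.56 CPM in ntCZC and 11.4 to 67.4 CPM in tissue classical monocytes. Lymphocytes and monocytes themselves also use Pecam1, and Maf, a check gene of C1q macrophages, is also used by T cells.

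The Cdkn1a level that would come with these check genes, at the ratio of the 2 in the source class of the same library, was set beside the measured one. With endothelial cells as the source it was 7.91 to 93.7 CPM in tissue T cells (at most 86.7% of the level of a library), 21.5 to 123 CPM in B cells (at most 156%), up to 214 CPM in nonclassical monocytes (at most 116%) and 2.80 to 28.3 CPM in classical monocytes (at most 5.75%). With C1q macrophages as the source it reached 290% in tissue T cells, 57.1% in B cells, 28.2% in nonclassical and 19.8% in classical monocytes, and with neutrophils or alveolar macrophages at most 43.4% in any of the 4 classes. For Gdf15 in tissue classical monocytes the ratio of alveolar macrophages gave 8.10 to 49.3 CPM (at most 135% of the level of a library) and that of C1q macrophages 12.5 to 75.2 CPM (at most 438%). Estimates above the measured level cannot be the amount carried over, so these ratios are a description only. The thinned share of barcodes with a Cdkn1a UMI was 11.3% in tissue T cells, 1.34% in ntCZC T cells and 0.131% in PBMC T cells, beside 3.42% in tissue plasma cells. That with a Gdf15 UMI was 2.45% in tissue classical monocytes, beside 1.75% in tissue B cells. The part of RNA from other cells in the differences between kinds was not tested.

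In the ntCZC libraries 3 members came mostly from 1 class. The 156 C1q macrophage-like ntCZC barcodes held 229 of the 272 Cdkn2a UMIs of all ntCZC barcodes (84.2%), 51 of 61 Cdkn2b UMIs (83.6%) and 382 of 418 Gdf15 UMIs (91.4%), and 760 of 2340 Cdkn1a UMIs (32.5%). The class made up a median of 14.9% of the gated barcodes of the ntCZC libraries (0.230 to 44.0% by library), so the Cdkn1a share was also above the class's share of barcodes. The UMIs were unevenly spread: 38 barcodes held all Cdkn2a UMIs of the class, with 59.4% in the top 10, and 42 held all Gdf15 UMIs, with 66.8% in the top 10. The class was compared between 5 ntCZC and 9 tissue libraries with at least 10 such barcodes, also after the values had been seen, and none of 7 members tested was called, beside 29.5% of 6508 genes (edgeR, 1 member at an unadjusted p under 0.05, 1 called by DESeq2). As in B cells, none of these ntCZC libraries was wt, so kind and genotype label cannot be fully told apart. Cdkn2a was at 41.5 CPM in het replicate 1, 66.6 in het replicate 2, 107 in het replicate 3, 220 in null replicate 1 and 61.9 in null replicate 4, and at 3.13 to 246 CPM in the C1q macrophages of 9 tissue libraries (median 21.8). These ranges overlapped, with tissue wt replicate 5 at 246 CPM and the next tissue library at 29.7 CPM. The difference (log2 1.11, SE 0.75, edgeR adjusted p = 0.29) passed the threshold without that library (2.57, 0.0074). Cdkn2b was at 9.21 to 45.8 CPM in ntCZCs (median 20.6) and at 0 to 6.25 CPM in tissue (median 1.75), without overlap. The lowest ntCZC value rests on 2 UMIs (het replicate 1, 12 barcodes) and the highest tissue value on 3 UMIs (wt replicate 3), so the gap is within counting error. The Cdkn2b counts were too low for the filter, and without the filter it was called higher (log2 3.31, SE 0.63, edgeR adjusted p = 7.2e-04). Gdf15 overlapped fully, at 27.6 to 434 CPM (median 170) and 64.6 to 332 CPM (median 208) (log2 −0.19, edgeR adjusted p = 0.84). Cdkn2d did not pass (log2 1.10, SE 0.42, edgeR adjusted p = 0.057), but did so without the sex covariate (1.38, 0.0073), with DESeq2 (1.05, 0.0460), with a lead of 1 gate gene (1.25, 0.0217), with at least 20 barcodes (1.96, 0.0260, 2 ntCZC libraries), and without tissue wt replicate 2 (1.24, 0.0203), ntCZC het replicate 1 (1.39, 0.0331) or het replicate 2 (1.29, 0.0440). The ntCZC C1q macrophages also differed in 5 genes of the macrophages of the body cavities, Gata6, Prg4, Icam2, Serpinb2 and Selp, whose summed level was 2929 to 8287 CPM in ntCZCs and 15.4 to 494 CPM in tissue. This list was chosen after the values were seen, and its members serve as a description of which macrophages the gate held.

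**Figure D4:**
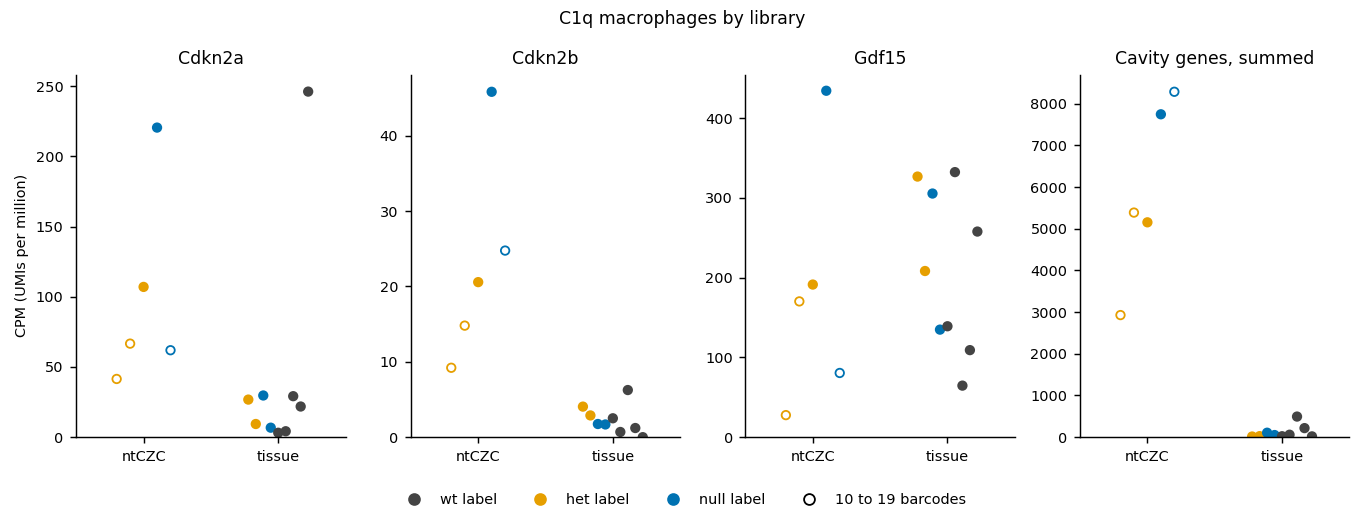
CPM of Cdkn2a, Cdkn2b, Gdf15 and 5 cavity macrophage genes summed in C1q macrophage-like barcodes, 1 point for each library, ntCZC and tissue on the horizontal axis (open points, 10 to 19 barcodes). Cdkn2b, which rests on 2 to 21 UMIs in each ntCZC library, and the cavity genes do not overlap between the kinds. Cdkn2a overlaps through 1 tissue library at 246 CPM and Gdf15 overlaps throughout.

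The study's main variable is the Nalcn genotype label. No member was called for it in any of the 5 comparisons of summed libraries (edgeR quasi-likelihood test, Benjamini-Hochberg). In ntCZCs, null against wt called 0.0% of 9379 genes (360 at an unadjusted p under 0.05, 13 by DESeq2), het against wt 0.107% (741 and 106) and null against het 0.0% (686 and 21). In tissue, null against wt called 0.0112% of 17863 genes (1621 and 342) and het against wt 0.0% (1367 and 73). At an unadjusted p under 0.05 there were 1, 1, 0, 0 and 1 members in these comparisons, in this order. With 2 ntCZC wt libraries, of which 1 stood apart, the depth of the comparison is limited. The tissue comparisons are limited as well, with 2 het and 2 null libraries. Of these, null replicate 3 held Y-linked UMIs and epididymal barcodes under a female and uterus label.

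In ntCZCs the member with an unadjusted p under 0.05 was Cdkn1a, both for null and for het against wt. It was at 45.7 CPM in wt replicate 1 and at 0 in wt replicate 3, at 172, 337, 200 and 251 CPM in het replicates 1 to 4, and at 229, 191, 35.5 and 124 CPM in null replicates 1 to 4. All het libraries lay above both wt libraries, and the null libraries overlapped with wt. The fitted log2 differences were 2.88 for het against wt (SE 0.76, edgeR adjusted p = 0.35) and 2.57 for null against wt (edgeR adjusted p = 0.98), and DESeq2 called the first with an adjusted p of 0.0098. Gdf15 had no UMI in either wt library, and was at 9.45, 64.6, 64.4 and 0.769 CPM in het and at 147, 16.9, 0 and 15.6 CPM in null replicates 1 to 4. For Cdkn2a the wt libraries gave 4.25 and 0 CPM, the het libraries 35.7, 24.2, 31.4 and 0 CPM and the null libraries 76.3, 12.2, 38.4 and 11.1 CPM. The number of C1q macrophage-like barcodes, the class that held most Cdkn2a and Gdf15 UMIs, differed between the same libraries: wt had 5 and 1 such barcodes, het 12, 10, 50 and 1, null 48, 7, 5 and 17. Its part in the values by label was not tested. Haemoglobin differed between these libraries too. It took 25.2%, 32.4% and 25.3% of UMIs in null replicates 1, 3 and 4, which were labelled female, 6.16% in null replicate 2, which was labelled male, 0.333 to 6.04% in the het libraries, and 1.67% and 73.5% in wt replicates 1 and 3, both labelled male. Its part was not tested either, and sex was a term of these fits. In tissue, Cdkn1a was at 211, 353, 255, 266 and 180 CPM in wt replicates 1 to 5, at 381 and 168 CPM in het and at 316 and 273 CPM in null. The 3 labels overlapped. Mdm2 in tissue was at 51.2, 89.4, 57.8, 56.4 and 40.4 CPM in wt, at 50.9 and 35.6 CPM in het and at 58.1 and 41.9 CPM in null (het against wt log2 −0.71, SE 0.24, edgeR adjusted p = 0.64).

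**Figure D5:**
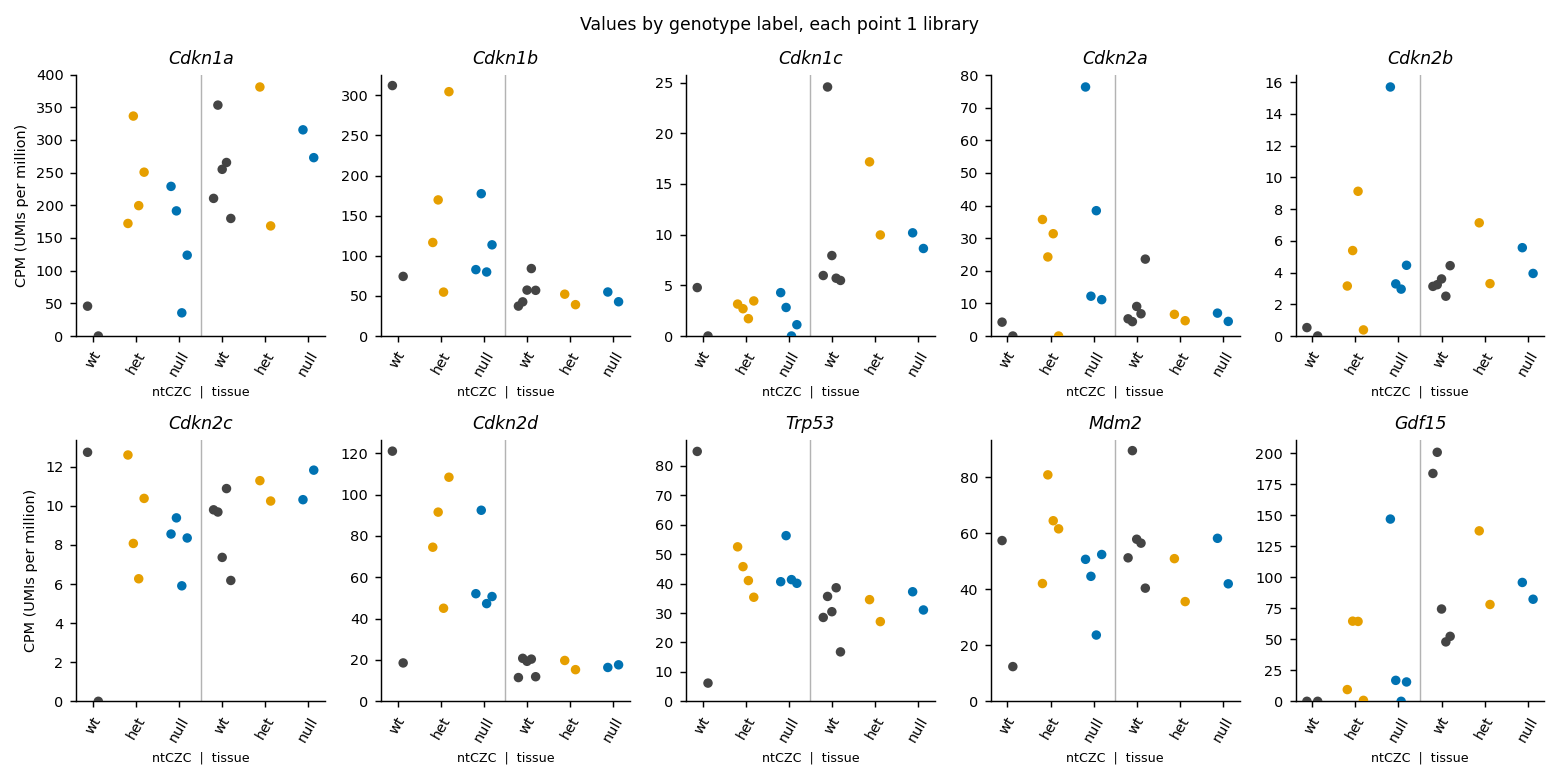
CPM of each member by genotype label (wt, het, null), 1 point for each library, ntCZC libraries on the left and tissue libraries on the right of each panel. In tissue the het and null points overlap with wt for every member, and in ntCZCs both wt libraries sit low for Cdkn1a (0 and 45.7 CPM) and Gdf15 (0 in both).

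Within 11 tissue classes with at least 2 libraries of each label, 79 pairs of member and class were tested for null against wt and 79 for het against wt, and none was called (edgeR, 5 and 10 at an unadjusted p under 0.05, 0 and 0 by DESeq2). The lowest adjusted p of a member was 0.77 for null and 0.47 for het. The limits of the tissue libraries given above hold here too, also for epididymal epithelium, where null replicate 3 entered the fit. Of all genes, null against wt called 0.0707% in neutrophils, 0.0441% in proximal tubule, 0.0282% in classical monocytes, 0.0168% in endothelial cells, 0.00991% in alveolar macrophages and 0.0% in the other 6 classes, and het against wt 0.0329% in ciliated cells and 0.0% in the other 10.

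Other genes of the pathway were taken from 3 lists. In ntCZC against tissue libraries, 7 of 22 p53 targets tested were higher and 10 lower, beside 27.5% and 38.5% of all genes (median log2 −0.40, beside −0.13 for all genes), 1 of 6 p53 regulators was higher and 1 lower (median −0.09), and 4 of 15 cyclin, kinase and pocket protein genes were higher and 3 lower (median −0.10). Bbc3, which encodes the pro-apoptotic protein PUMA, was at 56.2 ± 33.0 CPM in ntCZCs and 6.88 ± 1.12 CPM in tissue (log2 3.05, SE 0.23, edgeR adjusted p = 8.7e-10). Perp, a membrane protein of cell junctions, was at 1.19 and 26.4 CPM (log2 −4.77, edgeR adjusted p = 9.4e-10), and the death receptor gene Tnfrsf10b at 0.188 and 4.44 CPM (log2 −4.00, edgeR adjusted p = 1.0e-06). Ccnd3, a D-type cyclin, was at 152 and 45.7 CPM (log2 1.71, edgeR adjusted p = 6.4e-07), and E2f4, a repressor E2F, at 30.9 and 13.9 CPM (log2 1.14, edgeR adjusted p = 2.6e-06). Trp53bp1, a DNA damage mediator, was at 4.94 and 13.4 CPM (log2 −1.37, edgeR adjusted p = 3.7e-06).

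Within nonclassical monocytes, 2 of 9 p53 targets were higher and 2 lower in ntCZCs, beside 9.84% and 13.2% of all genes. Bbc3 (126 against 41.7 CPM, log2 1.47, edgeR adjusted p = 0.0030) and the antiproliferative gene Btg2 (log2 0.67, edgeR adjusted p = 0.017) were higher, whereas Plk2 (log2 −2.10, edgeR adjusted p = 0.0026) and Pmaip1 (log2 −0.76, edgeR adjusted p = 0.049) were lower. Of 6 cyclin, kinase and pocket protein genes, Ccnd3 was higher (log2 0.57, edgeR adjusted p = 0.027) and Ccnd2 lower (17.0 against 81.6 CPM, log2 −2.63, edgeR adjusted p = 1.1e-04). Within B cells, 2 of 10 targets were higher and 2 lower, beside 16.2% and 19.2% of all genes, among them Sesn1, a sestrin of the stress response (159 against 31.0 CPM, log2 2.14, edgeR adjusted p = 5.3e-04), and Ccng1 (12.1 against 43.4 CPM, log2 −1.27, edgeR adjusted p = 0.013). Of 11 targets tested in T cells 1 was higher and 2 lower (5.20% and 8.73% of all genes), of 6 in classical monocytes 1 and 1 (9.21% and 16.0%), and of 11 in C1q macrophages 4 and 1 (12.6% and 16.9%). Bbc3 was also higher in ntCZC T cells (log2 2.06, edgeR adjusted p = 0.032) and classical monocytes (1.78, edgeR adjusted p = 0.019), and Pmaip1 lower in both (−2.99 and −1.13, edgeR adjusted p = 0.014 and 0.019). None of the listed genes was called in the 5 comparisons of genotype labels on summed libraries.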

How the data were processed

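Single-cell 3′ libraries (10x Genomics v3) were analysed from the filtered UMI count matrices that the authors deposited, 22 libraries of 31053 genes on mm10, made with Cell Ranger (2.1.1 in the submitters' processing notes, 3.0.2 in the matrix headers). One tag is counted per transcript, so levels compare between genes without a length term. The hashtags of pooled organs and the authors' clusters were not used here. Raw counts were summed per library, and per library and class from barcodes in which 200 or more genes were seen and no more than 25% of UMIs were mitochondrial, and given as counts-per-million (CPM). No doublet caller was run, and the lead over other classes drops barcodes with markers of 2 classes, not doublets within a class.

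Tests were edgeR 4.0.16 quasi-likelihood tests (TMM, filterByExpr, Benjamini-Hochberg at 0.05, sex as covariate) in R 4.3.3, over all genes. DESeq2 1.42.0, RLE scaling, no filter, other gates and covariates, and leaving out each library were alternatives. The scripts were tested on simulated data. The members were always named, and of 3 pathway lists at most 3 called genes per direction. For each member with at least 200 UMIs in gated tissue barcodes, the 3 genes with the most similar class means were found by Pearson correlation of log2(CPM + 1). Members and lists were chosen with earlier results of these data known. No pair of libraries of the same group agreed within sampling noise (lowest chi-square per gene 4.75).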

Additional observations from a re-analysis of the deposited data

Results flagged for a closer look

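Within groups of 4 to 10 libraries, 18 of 136 sets of values had 1 library far from the others by Dixon's criterion, which chance alone meets in about 5 of 100. Among the 4 ntCZC null libraries, replicate 1 was highest for Cdkn2b (15.7 CPM, the others 2.95 to 4.46) and Gdf15 (147 CPM, the others 0 to 16.9). Replicate 2 was highest for Cdkn2d (92.5 CPM, the others 47.3 to 52.1) and Trp53 (56.3 CPM, the others 40.1 to 41.4). Among the 5 tissue wt libraries, replicate 2 led for Cdkn1c (24.6 CPM, the others 5.48 to 7.94) and replicate 5 for Cdkn2a (23.6 CPM, the others 4.41 to 9.06).

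Within tissue classes the high single values were Cdkn2a in the C1q macrophages of wt replicate 5 (246 CPM) and the epididymal epithelium of wt replicate 2 (89.4 CPM, the others 1.80 to 29.9). Cdkn1b stood out in the alveolar macrophages of wt replicate 4 (75.9 CPM, the others 32.5 to 50.9) and Cdkn2c in the T cells of wt replicate 4 (28.0 CPM, the others 0 to 12.9). Cdkn2d stood out in 4 classes: neutrophils of het replicate 2 (197 CPM, the others 27.4 to 92.7), B cells of null replicate 3 (80.5 CPM, the others 36.2 to 47.2), fibroblasts of null replicate 3 (43.7 CPM, the others 4.93 to 21.1) and ciliated cells of null replicate 2 (32.5 CPM, the others 5.16 to 16.6). Mdm2 was far from the others in the B cells of wt replicate 3 (117 CPM, the others 40.1 to 74.5) and in 2 classes of het replicate 2, the ciliated cells (265 CPM, the others 149 to 187) and, as the only low value, the gastric mucous cells (10.1 CPM, the others 40.7 to 56.1). Gdf15 was high in the T cells of wt replicate 2 (104 CPM, the others 5.70 to 24.1).

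Of the 2 tissue libraries without a genotype group, which entered no comparison, the second was above the highest of the 5 tissue wt libraries for 5 members. Cdkn1a was at 688 CPM there (highest wt 353), Gdf15 at 228 CPM (201), Trp53 at 41.8 CPM (38.6), Cdkn2d at 22.8 CPM (20.8) and Cdkn2b at 4.63 CPM (4.43). For Trp53, Cdkn2d and Cdkn2b the margin was small. The share of all genes above the highest wt library in this sample is not given, so the count describes these values only.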

How the results depend on the processing

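Of the 13 calls of members between kinds of library, overall and within classes, 7 held in every alternative run (Cdkn1b, Cdkn1c and Cdkn2d between ntCZC and tissue libraries, Cdkn1a in T cells and Cdkn1a, Mdm2 and Gdf15 in classical monocytes), and of the 88 calls of tissue classes, 28. Between ntCZC and tissue libraries 5 members were called, 5 to 7 under the other settings and 4 to 6 when single libraries were left out. RLE scaling and DESeq2 moved the median of all genes from −0.13 to −0.37 and −0.36 and the share of calls that were higher from 41.7% to 29.4% and 30.5%. For ntCZC het against wt, 1 member was called by DESeq2 and 1 without the filter on low counts, in place of 0. In nonclassical monocytes the count of 1 became 0 (DESeq2), 2 (no filter) and 3 (lead of 1 gate gene), and 0 to 2 when single libraries were left out. In B cells the count of 2 became 1 with at least 50 barcodes per library and 3 without the filter or with a lead of 1 gate gene, and 0 to 3 when single libraries were left out. In T cells, compared after seeing the data, the count of 1 became 2 without the filter or with a lead of 1 gate gene and stayed at 1 when single libraries were left out, where a lone ntCZC library is taken to vary like the others. In classical monocytes it was 4, and 3 to 4 when single libraries were left out. In C1q macrophages the count of 0 became 1 with DESeq2, without the filter or without the sex covariate, 2 with a lead of 1 gate gene or at least 20 barcodes, and 0 to 2 when single libraries were left out. Without the filter 2 pairs of member and class were called for null and 2 for het against wt within tissue classes, in place of 0. Tissue class pairs numbered 88, 44 when each class was set against the sums of all others (chosen after seeing the data), 73 to 97 under the planned settings and 74 to 91 when single libraries were left out. The reversed calls were these: with a lead of 1 gate gene Gdf15 in gastric mucous cells (0.26) and Cdkn1c in proximal tubule (0.029), and against the sums of all other classes Cdkn1a in C1q macrophages (−0.068) and ciliated cells (−0.053) and Cdkn2a in endothelial cells (−0.46) and T cells (−0.035). The cause was not tested. Members with a higher share of positive barcodes in ntCZCs numbered 4 after thinning and 7 without it. By DESeq2 13, 106, 21, 342 and 73 genes were called for the 5 genotype comparisons in place of 0, 10, 0, 2 and 0, and with RLE scaling 5 in place of 10 for ntCZC het against wt. Replicate numbers are shared between groups. Same-numbered libraries deviated together (correlation over 0.1) in 2 of 8 ntCZC, 0 of 5 tissue and 1 of 20 ntCZC and tissue pairs. This check cannot exclude that blood and organs came from the same mouse, because libraries in a group of 2 deviate in mirror image. Age and sex labels are the same for ntCZC and tissue wt replicates 1 and 3, het replicate 2 and null replicate 2. The main tests between kinds took all libraries as independent. With a replicate block 5 members were called between ntCZC and tissue libraries (8424 of 13840 genes) and 0 for every genotype comparison. The fit within T cells between kinds and the genotype fits with at least 50 barcodes were not run, the latter for classical monocytes, neutrophils, ciliated cells and epididymal epithelium. Depth limited Cdkn1c in ntCZCs, which was not tested by genotype label, and every value of ntCZC wt replicate 3.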

Other observations

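In the first of the 2 tissue libraries without a genotype group, Cdkn1a was at 125 CPM, Gdf15 at 60.3 CPM, Cdkn1b at 43.3 CPM, Mdm2 at 30.3 CPM, Trp53 at 24.9 CPM, Cdkn2d at 18.6 CPM, Cdkn2c at 9.95 CPM, Cdkn1c at 5.41 CPM, Cdkn2a at 4.62 CPM and Cdkn2b at 2.61 CPM. In the second, Mdm2 was at 75.7 CPM, Cdkn1b at 65.0 CPM, Cdkn1c at 10.3 CPM, Cdkn2c at 10.1 CPM and Cdkn2a at 6.50 CPM. The Cdkn2b level of alveolar type 1 cells was 79.6 CPM in the second library, near the 84.5 to 118 CPM of the 4 libraries with a label, and Cdkn1b in nonclassical monocytes was at 398 and 214 CPM in the first and second library.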
